A study of Mus musculus with 6 samples.

Results

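The genes described here are the MHC class II genes of the mouse and the genes that load peptide onto their products. They are H2-Ab1, H2-Aa, H2-Eb1, Cd74, H2-DMa, H2-DMb1, H2-DMb2 and Ciita, 8 of the 23942 genes in the deposited table, found there by symbol. They were chosen by their function and from earlier results of these same data, in which several of them were higher in memory than in naive libraries. The difference between the groups is therefore given for them as a description, with no p-value, and a count of those called serves only to place them beside all genes. The libraries are bulk RNA sequencing of group 1 innate lymphoid cells (ILC1s, tissue-resident relatives of natural killer cells) from mouse liver, labelled as lymphocytes. The 3 naive libraries were labelled with solvent and day 0, and the 3 memory libraries with the treatment OXA, which the labels do not spell out, and day 30. Solvent at day 30 was not among the 6 libraries, so treatment and elapsed time cannot be told apart. Strain, genotype, age, any pooling of animals and the sorting gate were not stated in the sources used here.

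MHC class II molecules present peptides from endosomes to CD4+ T cells. An alpha chain and a beta chain pair in the endoplasmic reticulum with the invariant chain, encoded by Cd74, which blocks the groove and steers the complex to endosomes. Proteases there trim the invariant chain to a short fragment, and the dimer of H2-DM alpha and beta chains exchanges that fragment for peptide. The coactivator CIITA, encoded by Ciita, switches on the other genes of the set by docking on factors bound at the X and Y boxes of their promoters. B cells, dendritic cells and macrophages are the usual sources of class II, and interferon-gamma can induce it in many other cells through CIITA.

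The promoters are shown because class II genes and the genes of their peptide loading are known for X and Y boxes. Whether these boxes have a part in the differences between the groups was not tested. RefSeq promoters (GRCm38.p6, 250 bases before to 50 after each start) were at hand for 5 of the 8 genes, with 6 promoters in all. The X letters searched were AGNNAC, then any 2 bases, then ATG. The Y letters were ATTGG. Capitals mark fixed letters of X and all letters of Y in the bases before the start.
H2-Eb1: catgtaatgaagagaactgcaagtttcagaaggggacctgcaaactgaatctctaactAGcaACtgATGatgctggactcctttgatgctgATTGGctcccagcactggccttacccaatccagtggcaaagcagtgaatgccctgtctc
H2-Aa: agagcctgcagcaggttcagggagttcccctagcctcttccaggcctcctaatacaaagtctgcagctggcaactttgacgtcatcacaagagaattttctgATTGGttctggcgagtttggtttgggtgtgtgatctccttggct
H2-DMb2: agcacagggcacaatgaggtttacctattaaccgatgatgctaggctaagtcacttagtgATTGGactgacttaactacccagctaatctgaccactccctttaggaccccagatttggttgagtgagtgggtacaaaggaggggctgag
H2-DMb1: aggtttacctAGtaACtgATGatgctaggc

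The H2-Eb1 stretch is chr17:34305717-34305866 on the plus strand and the H2-Aa stretch is chr17:34287828-34287973 on the minus strand. The H2-DMb2 stretch is chr17:34145099-34145248 on the plus strand, within an intron by the exons of the deposited table, whose first H2-DMb2 exon starts 1942 bases upstream of the RefSeq start. For H2-DMb1 only the 30 bases around the X letters are shown, chr17:34153086-34153115 on the plus strand, since they lie within an exon of the deposited table. In H2-Eb1 the X letters began 92 bases and the Y letters 59 bases before the start, with 22 bases between them. In H2-DMb1 the X letters began 95 and the Y letters 61 bases before the start, with 23 between them. H2-Aa held the Y letters 48 bases and H2-DMb2 90 bases before the start, and neither held the X letters as searched. The search allowed no mismatch, so it does not show that either promoter lacks an X box. Of all 32851 promoters in the table, 3.09% held the X letters and 37.4% the Y letters on either strand. X followed by Y in the sense direction with 15 to 30 bases between them was found in 14 of them (0.0426%), and 4 of those 14 belonged to H2-Eb1, H2-DMb1, H2-Ob and H2-Eb2. The 2 RefSeq starts of H2-DMa lie 12350 and 9664 bases before its first exon in the deposited table, so they are not shown.

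Values are RPKM, reads per kilobase of exon and scaled to library size, so levels can be set side by side between genes. The library totals recovered from the values were 18697093 to 23795266 reads, and a floor of 3 reads lay between 0.126 and 0.16 RPKM for a gene with 1 kilobase of exon. Whole reads came out for 100% of the values within 0.001 of a read. With limma, 13793 genes whose mean RPKM reached 0.5 were tested, of which 441 (3.20%) were called higher in memory at an adjusted p of at most 0.05 and 134 (0.972%) lower. Of the 8 class II genes, 7 passed that filter and 6 were called higher. In 7 of the 8 every memory library was above every naive library, which held for 14.9% of all tested genes. Nothing is read from these counts, since the genes were chosen with this contrast known. The gene lists described below were also chosen with earlier results of these data known. Nothing is therefore read from how many of their genes were called. The median difference over all 8 genes was 1.94 on the log2(RPKM + 1) scale, against 0.02 over all genes tested. In bulk RNA, fewer cells of a type and less RNA per cell cannot be told apart.

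**Figure D1:**
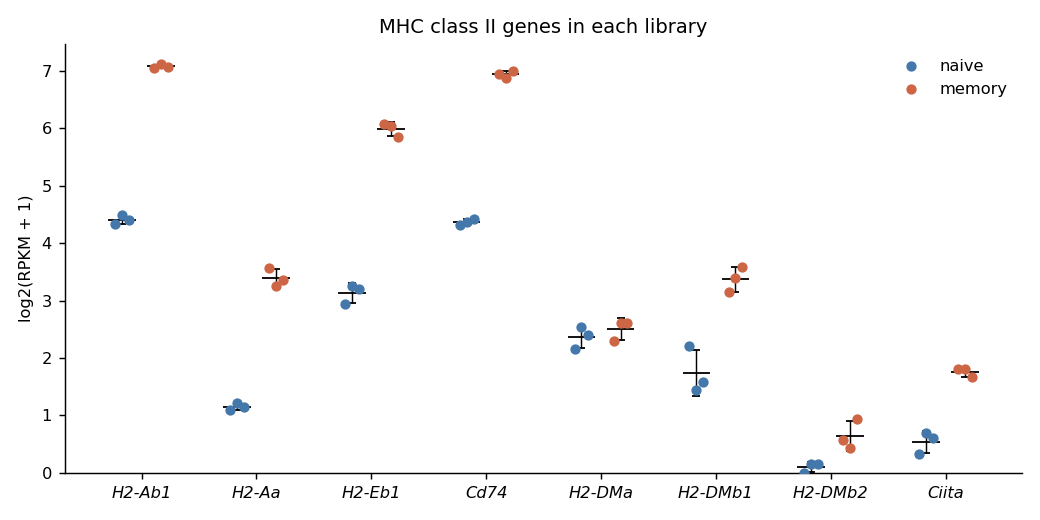
Level of each class II gene in each library as log2(RPKM + 1), with points for the 3 naive and 3 memory libraries, a bar at the mean and whiskers of 1 SD. H2-DMa is the gene whose groups overlap, and in the other 7 genes the memory points all lie above the naive points.

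The chains that form the peptide groove stood at very different levels. H2-Ab1, the beta chain of I-A (chromosome 17, 34263209 to 34269418, plus strand, mm10), was at 19.1, 21.5 and 20.1 RPKM in naive replicates 1 to 3 and at 131, 137 and 134 RPKM in memory replicates 1 to 3. Its means were 20.2 ± 1.20 and 134 ± 3.18 RPKM (SD, n = 3 each), a ratio of 6.63. The groups were far apart, and the lowest memory library was 6.09 times the highest naive library. H2-Eb1, the beta chain of I-E (chromosome 17, 34305877 to 34316199, plus strand), was at 6.64, 8.51 and 8.23 RPKM in naive and 66.4, 64.4 and 56.6 RPKM in memory libraries. Its ratio of means, 8.02, was the highest among the 7 genes for which a ratio was formed. H2-Aa, the alpha chain that pairs with H2-Ab1 (chromosome 17, 34282744 to 34287827, minus strand), was at 1.14, 1.31 and 1.21 RPKM in naive and 10.9, 8.57 and 9.22 RPKM in memory libraries, a ratio of 7.82. All memory libraries again lay above all naive ones.

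The alpha and beta chains of I-A were far apart per length. The RPKM of H2-Aa was 0.0597, 0.061 and 0.0604 of that of H2-Ab1 in the naive libraries and 0.083, 0.0624 and 0.069 of it in the memory libraries. H2-Ab1 was thus between 12.04 and 16.7 times H2-Aa in each of the 6 libraries. The strain, and with it the MHC haplotype, was not stated, and the cause of this gap was not tested. No exon of another gene in the table overlapped the exons of H2-Aa, H2-Ab1 or H2-Eb1. The alpha chain gene of I-E is listed as the pseudogene H2-Ea-ps, as in the reference strain C57BL/6, which makes no I-E. H2-Ea-ps had no read in 5 libraries and 0.147 RPKM in memory replicate 3, which is under the floor of 3 reads. H2-Eb1 was at 0.347, 0.396 and 0.41 of H2-Ab1 in naive and 0.507, 0.469 and 0.424 in memory libraries, so these ratios did not overlap between the groups.

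Cd74, which encodes the invariant chain and also serves as a receptor for the cytokine MIF (chromosome 18, 60803848 to 60812646, plus strand), was at 18.9, 19.5 and 20.4 RPKM in naive and 122, 117 and 126 RPKM in memory libraries. Its means were 19.6 ± 0.726 and 122 ± 4.71 RPKM (SD, n = 3 each), a ratio of 6.21. It tracked H2-Ab1 closely, at 0.908 to 1.01 times its level in naive and 0.85 to 0.943 times in memory libraries. In naive libraries the ranges of Cd74 and H2-Ab1 overlapped, whereas in memory libraries every value of H2-Ab1 was above every value of Cd74. The microRNA gene Mir5107 lies within Cd74 on the same strand and shares 12 exon bases with it, so reads could have been split or lost there.

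The H2-DM genes did not move as one. H2-DMa, the alpha chain of the peptide exchanger (chromosome 17, 34135182 to 34139101, plus strand), was at 3.49, 4.79 and 4.27 RPKM in naive and 3.90, 5.10 and 5.13 RPKM in memory libraries. Its groups overlapped, with a ratio of means of 1.13. H2-DMb1, a beta chain gene (chromosome 17, 34153072 to 34160230, plus strand), was at 3.60, 1.72 and 2.01 RPKM in naive and 7.86, 9.45 and 10.99 RPKM in memory libraries, a ratio of 3.86. Naive replicate 1 was the highest of its group for H2-DMb1 and the lowest for H2-DMa. H2-DMb2, the second beta chain gene (chromosome 17, 34143307 to 34151553, plus strand), had 0, 4 and 4 reads in naive and 18, 14 and 31 reads in memory libraries, or 0 to 0.115 and 0.344 to 0.913 RPKM. It was higher in every memory library, but it fell under the filter of 0.5 RPKM and no ratio was formed, since 1 naive library had no read.

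H2-DMb1 and H2-DMb2 are close copies of each other. In the longest protein coding transcripts of GENCODE M21 they were identical at 94.6% of 1219 aligned bases, and the longest identical run was 221 bases. Reads from that run belong equally to both genes, so the division between them is uncertain. Such reads could also have been lost, in which case the sum of both genes is too low as well. The RPKM of H2-DMa was 0.968, 2.61 and 2.02 times the sum of both beta chain genes in naive libraries and 0.467, 0.52 and 0.431 times in memory libraries. The alpha chain was thus about level with or above the beta chains in naive libraries and below them in every memory library. H2-Eb1 and its neighbour H2-Eb2 were less alike, with 70.2% identity and a longest identical run of 44 bases.

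Ciita (chromosome 16, 10488178 to 10527564, plus strand) was low in both groups. It was at 0.254, 0.618 and 0.531 RPKM in naive libraries, which was 25, 66 and 59 reads. In memory libraries it was at 2.51, 2.496 and 2.17 RPKM, or 280, 312 and 226 reads, and the ratio of means was 5.11. Every memory library lay above every naive library by at least 3.51 times. The exons of Ciita overlap those of Dexi on the opposite strand over 111 bases, and no source used here gives the strand setting of the counting.

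The sum of the 8 genes differed between the groups, and so did the shares of some of them. The summed level was 53.2, 58.1 and 56.8 RPKM in naive and 345, 344 and 345 RPKM in memory libraries, with an SD of 0.385 over the memory libraries. Relative to its mean, each single gene varied more over the memory libraries than that sum did. The highest memory library was replicate 1 for H2-Aa, H2-Eb1 and Ciita, replicate 2 for H2-Ab1 and replicate 3 for Cd74 and the H2-DM genes. H2-Ab1 and Cd74 together made up 70.6% to 71.5% of the sum in naive and 73.3% to 75.3% in memory libraries. H2-DMa held 6.56% to 8.25% in naive and 1.13% to 1.49% in memory libraries. H2-Eb1 held 12.5% to 14.7% in naive and 16.4% to 19.2% in memory libraries.

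**Figure D2:**
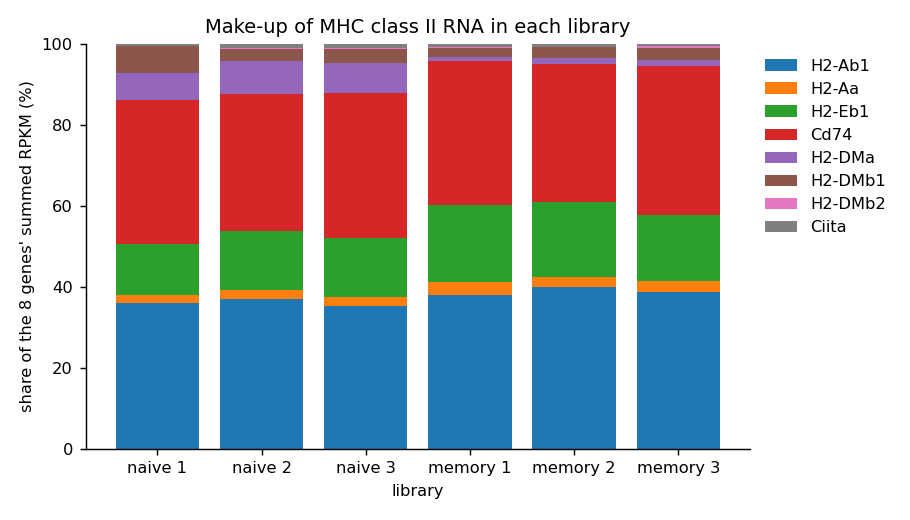
Share of each gene in the summed RPKM of the 8 class II genes, as stacked bars from 0 to 100% for each of the 6 libraries. H2-Ab1 and Cd74 fill at least 70.6% of every bar, and the H2-DMa segment is narrower in the memory bars, at 1.13% to 1.49%.

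In order of level per length, H2-Ab1 and Cd74 led in both groups, followed by H2-Eb1. In memory libraries H2-Aa (8.57 to 10.9 RPKM) and H2-DMb1 (7.86 to 10.99 RPKM) came next and overlapped, then H2-DMa, Ciita and H2-DMb2. In naive libraries H2-DMa (3.49 to 4.79 RPKM) came next and overlapped H2-DMb1 (1.72 to 3.60 RPKM), ahead of H2-Aa, Ciita and H2-DMb2. The spread between replicates was smallest for Cd74 in naive libraries, with a coefficient of variation of 3.70%, and for H2-Ab1 in memory libraries, at 2.38%. It was 41.5% for H2-DMb1 and 40.6% for Ciita in naive libraries and 16.6% and 8.10% in memory libraries.

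Of the set, 6 lie in the class II region of chromosome 17, and genes of class I loading are interleaved with them there. Between H2-DMb1 and H2-Ab1 lie Psmb9 and Psmb8, immunoproteasome subunits, and Tap1 and Tap2, which pump peptides into the endoplasmic reticulum. Psmb9 was at 15.3 and 17.6 RPKM in naive and memory libraries, Psmb8 at 111 and 110, Tap1 at 33.3 and 34.2 and Tap2 at 56.7 and 56.5. None of these 4 was called (limma adjusted p = 0.238, 0.835, 0.69 and 0.985). Exons of Psmb9 and Tap1 overlap on opposite strands, so their division of reads is uncertain. On the strand opposite to Psmb8 and Tap2, the span of Gm20496 (218 and 207 RPKM) overlaps both. Gm15821 (93.3 and 90.5 RPKM) lies within the span of Tap2 on that strand. Whether exons of Gm20496 and Gm15821 overlap those of Psmb8 and Tap2 was not checked. Further class II genes of the region were low. H2-Oa and H2-Ob, the chains of H2-DO, which restrains H2-DM in B cells, were at 0.387 and 0.207 RPKM in naive and 0.657 and 0.321 in memory libraries, with overlapping groups. H2-Eb2 was at 0.145 to 0.643 RPKM in naive and 0.685 to 0.958 in memory libraries. Of this list of 4 in the table, H2-Oa and H2-Eb2 were tested and neither was called by limma (adjusted p = 0.563 and 0.31), with 0 at an unadjusted p under 0.05 and 0 by voom on recovered reads.

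**Figure D3:**
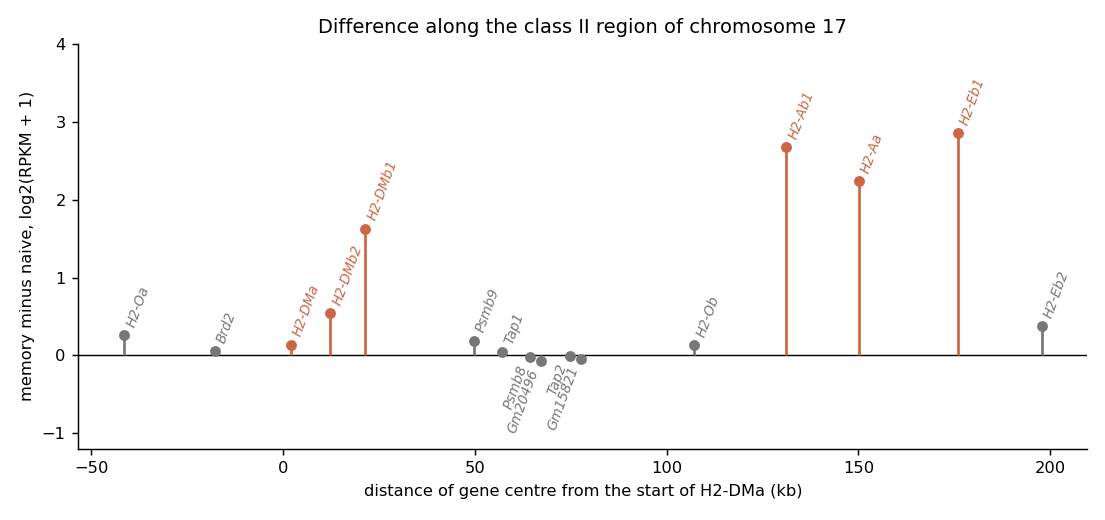
Difference between memory and naive libraries, in log2(RPKM + 1), against the distance in kb of each gene's centre from the start of H2-DMa, for the class II genes (orange) and the other genes of the region with a summed mean of at least 0.5 RPKM (grey). The class I loading genes Psmb9, Tap1, Psmb8 and Tap2 lie close to 0 between H2-DMb1 and H2-Ab1, which differ by 1.63 and 2.67.

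Of 20 tested genes of class I presentation, which include Psmb8, Psmb9, Tap1 and Tap2, 1 rose and 19 were not called, and the median difference was 0.09. Over all tested genes 3.20% were called higher, and the median was 0.02. H2-K1 and H2-D1, the classical heavy chains, were at 2291 and 1307 RPKM in naive and 2382 and 1331 RPKM in memory libraries (adjusted p = 0.549 and 0.803). The gene that rose, H2-Q6, a class Ib heavy chain, was at 722, 715 and 720 RPKM in naive and 809, 797 and 792 RPKM in memory libraries (log2 difference 0.15, SE 0.03, limma adjusted p = 0.0324). Leaving out any 1 of the 6 libraries ended that call (adjusted p = 0.0704 to 0.134), as did analysis with no filter, median ratio scaling and a replicate block, and adjusted p over all alternatives ran from 0.000171 to 0.154. H2-Q6 has close relatives, among them H2-Q7 (290 and 316 RPKM, adjusted p = 0.0722, called under quantile normalization and by voom), that could share its reads. H2-Q4 (156 and 170 RPKM) and H2-M3 (53.0 and 58.1 RPKM) were not called (adjusted p = 0.126 and 0.158).

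Among genes that process antigen and the invariant chain in endosomes, 3 of 8 tested rose and 5 were not called, with a median difference of 0.35. The share called higher was 3.20% and the median 0.02 over all tested genes. Ctss, which encodes cathepsin S, the protease that makes the last cuts in the invariant chain in antigen-presenting cells (chromosome 3, 95526786 to 95556403), was at 17.9, 14.7 and 18.2 RPKM in naive and 98.1, 105 and 105 RPKM in memory libraries. It rose by 2.54 on the log2 scale (SE 0.08, adjusted p = 1.93e-05), and the groups were far apart. Lgmn, the asparagine endopeptidase legumain, was at 1.15, 0.677 and 0.937 RPKM in naive and 2.96, 2.75 and 3.19 RPKM in memory libraries (log2 difference 1.05, SE 0.12, adjusted p = 0.00491). Ctsb, cathepsin B, rose from 30.7 ± 0.324 to 36.8 ± 1.75 RPKM (log2 difference 0.25, SE 0.05, adjusted p = 0.0307), a call that ended when any naive library or memory replicate 2 or 3 was dropped (adjusted p at most 0.117 when 1 library was dropped) and with a replicate block. Ifi30, the lysosomal thiol reductase GILT, was at 10.4 and 17.5 RPKM and missed the threshold (adjusted p = 0.059), though voom on recovered reads and leaving out naive replicate 1 called it. The most abundant of the list, Ctsd, cathepsin D, was at 241 and 232 RPKM (adjusted p = 0.694). March1, whose product tags class II for turnover, had its symbol turned into a date in the table and was matched by position (chromosome 8, 65617900 to 66471637). It was at 0 to 0.0963 RPKM in naive and 0.588 to 0.733 RPKM in memory libraries and fell under the filter.

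The factors that bind class II promoters together with CIITA were present in both groups. Rfx5, Rfxap and Rfxank, the subunits of the X box factor RFX, were at 8.76, 29.9 and 5.02 RPKM in naive and 9.01, 30.6 and 6.08 RPKM in memory libraries, and none was called (adjusted p = 0.823, 0.839 and 0.237). Nfyb, a subunit of the Y box factor NF-Y, was at 23.2 and 22.4 RPKM, and Creb1, which binds beside RFX, was at 9.93 and 12.3 RPKM (adjusted p = 0.758 and 0.0611). Creb1 was higher in every memory than in every naive library, and voom on recovered reads called it (adjusted p = 0.000223, with a range up to 0.189 over all alternatives). Of the 14 tested genes of the transcription list, 2 rose and 12 were not called, with a median of 0.06, and voom called 3 higher. By limma, 3.20% of all tested genes were called higher, with a median of 0.02. Spi1, which encodes the myeloid and B cell factor PU.1, was at 1.51, 1.04 and 0.878 RPKM in naive and 8.21, 8.34 and 8.49 RPKM in memory libraries (log2 difference 2.14, SE 0.12, adjusted p = 0.000177). Irf8, a partner of PU.1, rose from 17.5 ± 0.503 to 21.4 ± 0.941 RPKM (log2 difference 0.28, SE 0.05, adjusted p = 0.0321), a call that ended when any naive library or memory replicate 1 or 2 was dropped (adjusted p at most 0.126) and with a replicate block.

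Interferon-gamma acts on Ciita through its receptor, JAK kinases and further factors such as IRF1. Of the 8 tested genes of that list 4 rose, with a median of 0.21, against 3.20% and 0.02 over all tested genes. Ifngr2, the signalling chain of the receptor, was at 0.0969, 0.178 and 0.143 RPKM in naive libraries, which was only 6, 12 and 10 reads. In memory libraries it was at 1.78, 1.41 and 1.49 RPKM, or 125, 111 and 98 reads (log2 difference 1.17, SE 0.11, limma adjusted p = 0.00252). The ligand-binding chain Ifngr1 was at 208 and 218 RPKM and was not called (adjusted p = 0.331). Jak2, a kinase bound to the receptor, rose from 97.1 ± 1.81 to 119 ± 3.18 RPKM (log2 difference 0.28, adjusted p = 0.00655). Irf1 was at 80.9 and 93.3 RPKM (log2 difference 0.20, adjusted p = 0.03), a call that ended when any 1 library was dropped (adjusted p = 0.0677 to 0.121) and with a replicate block. Jak1 was at 129 and 126 RPKM (adjusted p = 0.706).

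No costimulation gene passed the threshold in the same fit. Of 5 tested, none was called by limma, and the median was 0.36. At an unadjusted limma p under 0.05, 4 were higher, and voom on recovered reads called 2, Cd274 and Cd83. In all 5 every memory library was above every naive one, which held for 14.9% of all tested genes. The share of all tested genes at an unadjusted p under 0.05 was not computed, so nothing is read from such counts for any list. Cd274, which encodes PD-L1, was at 31.7 and 40.8 RPKM, Icosl, the ligand of ICOS, at 14.0 and 16.3, Pdcd1lg2 (PD-L2) at 3.21 and 4.995 and Cd83, which is known to prolong class II at the surface of dendritic cells, at 0.649 and 2.15 (adjusted p = 0.105, 0.176, 0.105 and 0.0603). Cd86, a ligand of CD28, was at 0.564 and 0.79 RPKM (adjusted p = 0.427). Cd40, the receptor by which T cells license presenting cells, fell under the filter at 0 to 0.0289 RPKM in naive and 0.719 to 0.828 RPKM in memory libraries. Among receptors and partners of class II and of Cd74, 6 were tested and none was called, with 1 higher and 2 lower at an unadjusted p under 0.05 and 0 by voom. Lag3, an inhibitory receptor for class II, was at 6.73 and 5.85 RPKM, Mif and Ddt, ligands of Cd74, at 17.98 and 14.0 and at 19.8 and 16.8, and Cd44 and Cxcr4, its co-receptors, at 39.8 and 39.7 and at 0.71 and 1.46 (adjusted p = 0.277, 0.417, 0.239, 0.964 and 0.0743).

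**Figure D4:**
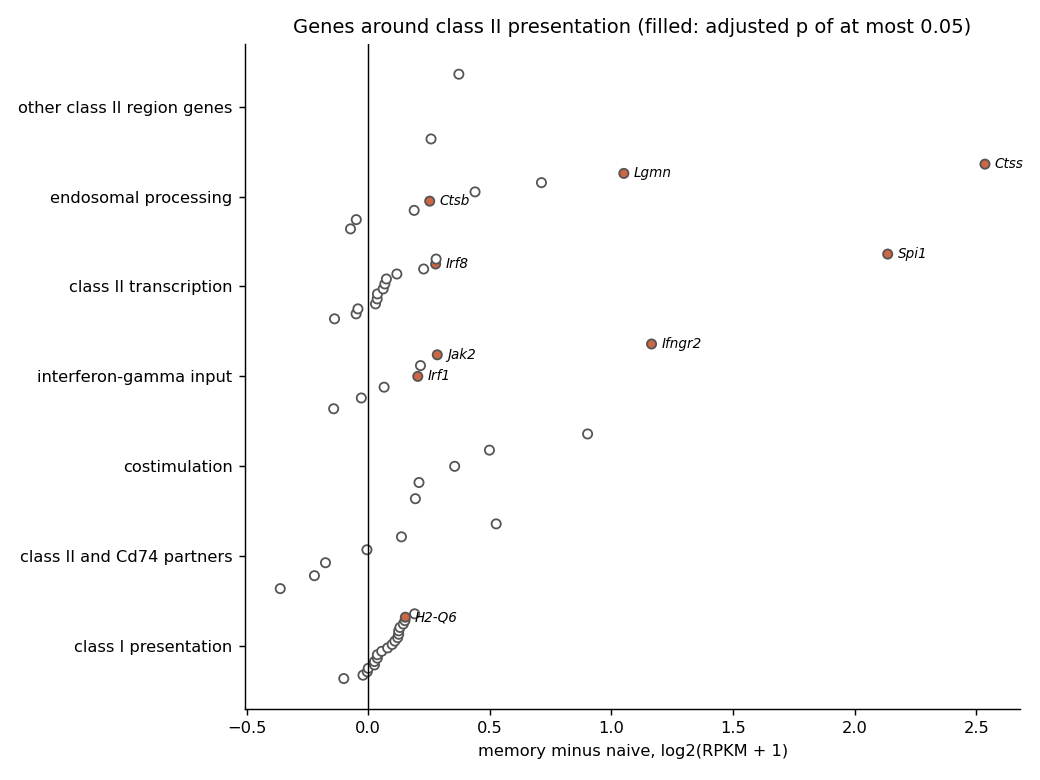
Difference between memory and naive libraries in log2(RPKM + 1) for the tested genes shown of the 7 lists around class II presentation, with 1 point a gene and filled, named points for genes at an adjusted p of at most 0.05. Ctss (2.54) and Spi1 (2.14) stand apart from the other genes of their lists.

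Markers of other cell types that make class II also differed between the groups, and their part in the class II values was not tested. Of 14 tested Kupffer cell and macrophage markers, 9 were called higher, against 3.20% of all tested genes. Their summed level was 59.3 to 65.1 RPKM in naive and 501 to 526 in memory libraries. Lyz2, the lysozyme of myeloid cells, made up most of it at 34.1 to 42.8 and 437 to 463 RPKM. The list was not uniform, and 5 of the 14 were not called. Timd4 (0.56 and 0.694 RPKM) and Vsig4 (2.01 and 2.81 RPKM) had overlapping groups and were not called (limma adjusted p = 0.704 and 0.378). Clec4f was called higher, at 2.88 and 4.68 RPKM (adjusted p = 0.0134). Csf1r, the receptor of macrophages for CSF1, was at 1.18 to 1.79 and 10.5 to 12.1 RPKM and Cd68, a lysosomal protein, at 1.24 to 1.72 and 5.50 to 9.70, while Cd5l, a protein of resident macrophages, was at 8.25 to 8.69 and 9.49 to 11.3 and was not called (adjusted p = 0.177). Of 9 tested monocyte markers, 8 were called higher, again against 3.20% of all tested genes. The sum of the list was 72.7 to 75.2 and 117 to 121 RPKM. Most of that sum was Ccr2 in both groups, so it understates the difference in the other markers. F13a1, Fn1 and Nr4a1 were at 0.853, 1.12 and 2.03 RPKM in naive and 11.8, 10.3 and 5.64 RPKM in memory libraries, and Ccr2, which lymphocytes also express, was at 66.2 and 67.9 and was not called.

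Of 6 tested conventional dendritic cell markers, Cd209a (0.189 and 2.55 RPKM), Batf3 (0.413 and 3.02) and Clec10a (0.102 and 1.08) were called higher. Over all tested genes 3.20% were. The sum of the list was 78.9 to 84.9 RPKM in naive and 84.7 to 88.6 in memory libraries. Most of it came from Itgax (79.9 and 76.8 RPKM, not called), so the sum says little of the other markers. Xcr1, a receptor of cross-presenting dendritic cells, was at 1.42 RPKM in both groups. Flt3, a growth factor receptor of dendritic cells and their progenitors, and Clec9a, a receptor of cross-presenting dendritic cells, had no read in any naive library and were at 0.32 to 0.62 and 0.129 to 0.352 RPKM in memory libraries. Of 3 tested plasmacytoid dendritic cell markers, Siglech was called higher (0.0805 and 1.08 RPKM) while Bst2 (18.9 and 21.7 RPKM) and Tcf4 (0.727 and 0.851 RPKM) were not, with sums of 18.1 to 22.6 and 22 to 25.5 RPKM. B cell genes other than Ighm were low in both groups, and the groups of Ighd alone among those tested did not overlap. Cd79b, a chain of the B cell receptor, was at 0.858 and 0.798 RPKM, Ighd, the IgD heavy chain, at 0.777 and 1.15 and Cd22 at 0.219 and 0.223. Cd79a was at most 0.26 RPKM and Igkc at most 0.316 RPKM in any library, and none of 3 tested B cell markers was called, with 1 at an unadjusted p under 0.05 and 0 by voom. The B cell sum of 79.2 to 91.3 and 86.2 to 89.3 RPKM was nearly all Ighm, at 85.0 and 85.4 RPKM. Liver endothelial markers summed to 14.9 to 17.1 and 19.6 to 20.1 RPKM, nearly all of it Pecam1, the only one tested, which was not called by limma (adjusted p = 0.0682) but was by voom. ILC3 markers, for another innate lymphoid cell that can carry class II, summed to 4.96 to 5.15 and 5.63 to 6.16 RPKM, and neither of the 2 tested was called by limma, with 1 at an unadjusted p under 0.05 and 1 by voom. Kit was at 4.05 RPKM in naive and 4.98 RPKM in memory libraries, and Il23r and Ccr6 were at 3 reads or fewer in every library. No marker of any list was at 0 in all 6 libraries.

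The ILC1 markers themselves summed to 964 to 1012 RPKM in naive and 972 to 1012 RPKM in memory libraries. Of 8 tested, Cxcr6 was called lower and 7 were not called. Ncr1, the gene of NKp46, was at 488 and 505 RPKM, Klrb1c (NK1.1) at 133 and 131, Zfp683 (Hobit) at 105 and 97.2 and Tbx21 (T-bet) at 72.1 and 71.8.

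**Figure D5:**
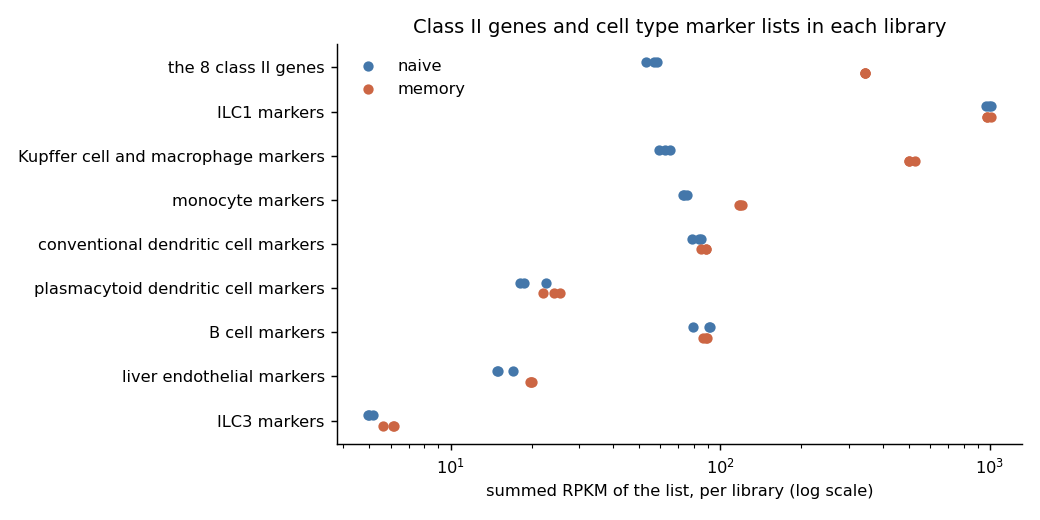
Summed RPKM of the 8 class II genes and of each cell type marker list in each library, on a log axis, with 3 naive and 3 memory points a row. The class II genes (53.2 to 58.1 against 344 to 345) and the Kupffer cell and macrophage markers (59.3 to 65.1 against 501 to 526) are widely separated, and the ILC1 markers overlap. Most of the Kupffer cell and macrophage sum is Lyz2, most of the monocyte sum is Ccr2 and most of the conventional dendritic cell sum is Itgax.

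By likeness of profile over the 6 libraries, the genes nearest to the mean of Cd74, H2-Aa, H2-Ab1 and H2-Eb1 included C3, Igsf6, Mir5107 and Tgfbi. Likeness was the Euclidean distance between profiles of log2(RPKM + 1), each centred on its own mean. The distance was 0.12 for C3, which encodes the central complement component and was at 0.915, 1.17 and 0.984 RPKM in naive and 11.5, 10.6 and 9.92 RPKM in memory libraries. It was 0.20 for Igsf6 (1.92 to 2.02 and 16 to 18.4 RPKM) and 0.25 for Tgfbi (0.848 to 1.08 and 11.04 to 11.8 RPKM). Mir5107, at 0.23, is the microRNA gene inside Cd74, and its 38 to 51 reads in naive and 248 to 362 reads in memory libraries cannot be told apart from those of Cd74. Of the 4 genes that define the profile, the distances were 0.14 for Cd74, 0.16 for H2-Ab1, 0.38 for H2-Eb1 and 0.45 for H2-Aa, and Ciita, H2-DMb1 and H2-DMa were farther, at 1.69, 1.41 and 3.02. These distances describe 6 libraries in which the group difference is the main component.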

How the data were processed

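The deposited table holds RPKM values made by the authors for 23942 genes, with exon positions and an exon length for each gene, per the file headers. The build mm10 and the tools edgeR 3.12.1, Subread 1.5.1, featureCounts and STAR 2.5.3a are listed, without roles, per the submitters' processing notes. No source used here gives the strand setting, annotation release or use of molecular identifiers. Per the labels' protocols, libraries were made from total RNA with a stranded mRNA kit.

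The labels gave the groups and replicate numbers. They name no animals behind the replicates, so the spread that p-values measure is that of these libraries and may be technical. The 8 genes and all lists were chosen with earlier results of these data known. limma 3.58.1 (R 4.3.3, limma-trend, two-sided) was fitted on log2(RPKM + 1) where the gene's mean RPKM reached 0.5, with Benjamini-Hochberg adjustment over all genes tested, and was checked on simulated data first. Differences are memory minus naive on that scale, which understates low genes. Whole reads were recovered from the RPKM values, exon lengths and the step of 1 read per library. Of counts from 1 to 10, 69.8% to 72.3% per library were even, so a read may not be an independent molecule. Floors of 3 reads cover counting error only. Named from the other lists were the up to 4 smallest adjusted p and the 2 most abundant genes of each pathway list, up to 4 most abundant markers of each marker list, and list genes within the class II region; other genes were named after their values were seen. Some genes these rules name are not reported here. The alternatives were pseudocounts of 0.1 and 0.5, a filter at 2 RPKM or none, median ratio scaling, quantile normalization, voom on recovered reads, a replicate block and each library left out. Figures were drawn with Python 3.11.15 and matplotlib 3.10.9.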

Additional observations from a re-analysis of the deposited data

How the results depend on the processing

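Of the class II genes, 6 were called higher as reported and 6 with each library left out, 5 with a filter of 2 RPKM, under which 6 were tested, and 5 with the replicate block, under which H2-DMb1 joined H2-DMa as not called. The differences kept their direction in every alternative that held the gene. Over all genes, 575 calls became 1141 with voom on recovered reads, 271 with the replicate block and 270 to 388 with a library left out. For class I presentation the 1 call became 0 with no filter, under median ratio scaling and with the replicate block, 3 under quantile normalization, 4 with voom and 0 whenever a library was left out. For costimulation, 0 calls became 1 with a pseudocount of 0.1 or with no filter, 2 with voom and 0 to 1 with a library left out. For class II transcription, 2 calls became 1 with the replicate block and 1 to 2 with a library left out. The replicate numbers were not taken as pairs, since the labels do not say that a number marks a shared animal or batch. Deviations of same-numbered libraries from their group means correlated at -0.084 to -0.003 over genes. Those of differently numbered libraries correlated at -0.078 to 0.109. With 3 libraries a group, these correlations do not settle whether the numbers mark pairs. Low read counts limit what can be said of H2-DMb2, H2-Oa, H2-Ob and, in naive libraries, Ciita and Ifngr2.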
